A study of Homo sapiens with 8 samples.

Results

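The G-run binders hnRNP H and F comprised 5 genes, HNRNPH1, HNRNPH2, HNRNPH3, HNRNPF and GRSF1, and every skipped-exon event listed under these symbols was taken. A skipped-exon event is an exon together with its neighbours, for which reads that include the exon and reads that skip it are counted. There were 66 such events among 123924 in the 2 deposited tables, over 32 exons: 32 events of HNRNPH1, 18 of HNRNPH3, 7 of HNRNPF and 9 of GRSF1. HNRNPH2 had no event in either table. The events came from polyA-purified RNA of 2 human breast epithelial lines: MCF10A, a non-tumorigenic line, and HMLE TWIST, immortalised cells in which the transcription factor TWIST is overexpressed from an integrated pBabe retrovirus. Each line received the solvent DMSO, here the control, or 10 µM emetine, an alkaloid that blocks translation, for 24 h, with 2 biological replicates per group and 8 libraries in all. The series concerns regulators of alternative splicing that act through RNA G-quadruplexes, 4-stranded structures of guanine runs, and the question for these genes was how their own exons were spliced under emetine.

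The hnRNP H and F proteins are closely related RNA-binding proteins that bind runs of guanine through quasi-RNA-recognition motifs and can promote or repress the use of nearby exons. HNRNPH2 is a close relative of HNRNPH1, HNRNPH3 encodes a smaller relative, and GRSF1 encodes a related G-rich RNA binder best known from mitochondrial RNA granules. Genes of RNA-binding proteins often carry exons whose inclusion or skipping puts a premature stop codon in the message, which marks it for nonsense-mediated decay, a degradation pathway that depends on translation.

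The sequences shown are those around which the results turn: the exon of HNRNPH1 and of HNRNPH3 that emetine altered, the matching stretches of HNRNPH2 and HNRNPF, and a 136-nt exon of GRSF1, shown because its skipping reads were more numerous with emetine. Runs of 3 or more G are in capitals, and each sequence reads 5′ to 3′ on the gene's own strand. They were read from GENCODE 29 transcripts, to which the deposited events were matched by exon and intron lengths. The HNRNPH1 exon (ENSG00000169045.13) lies at chr5:179046270-179046408 on the minus strand, the HNRNPH3 exon (ENSG00000096746.17) at chr10:70097615-70097753 on the plus strand and the GRSF1 exon (ENSG00000132463.13) at chr4:71697256-71697391 on the minus strand, in the deposited coordinates on GRCh37. All 3 exons are coding throughout in the protein-coding transcripts that hold them. The HNRNPH2 stretch lies at chrX:101412386-101412524 on the plus strand and the HNRNPF stretch at chr10:43387349-43387487 on the minus strand, both on GRCh38 and both coding throughout.
HNRNPH1 exon: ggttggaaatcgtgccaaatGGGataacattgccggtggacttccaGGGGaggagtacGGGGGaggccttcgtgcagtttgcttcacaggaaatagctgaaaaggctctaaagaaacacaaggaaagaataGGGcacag
HNRNPH3 exon: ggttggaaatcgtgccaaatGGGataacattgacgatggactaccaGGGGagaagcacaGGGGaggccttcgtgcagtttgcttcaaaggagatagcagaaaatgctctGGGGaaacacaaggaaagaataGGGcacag
HNRNPH2 stretch: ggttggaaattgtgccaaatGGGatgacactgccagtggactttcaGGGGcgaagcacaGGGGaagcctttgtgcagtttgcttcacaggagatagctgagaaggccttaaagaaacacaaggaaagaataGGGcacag
HNRNPF stretch: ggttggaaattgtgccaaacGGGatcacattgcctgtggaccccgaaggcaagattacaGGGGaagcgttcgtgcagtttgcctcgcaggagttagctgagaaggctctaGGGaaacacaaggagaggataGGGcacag
GRSF1 exon: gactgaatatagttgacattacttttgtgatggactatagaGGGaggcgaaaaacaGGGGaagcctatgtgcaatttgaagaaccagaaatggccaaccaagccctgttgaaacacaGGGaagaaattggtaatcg

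The HNRNPH1 and HNRNPH3 exons were both 139 nt long and identical at 126 positions (90.6%). The best ungapped match to the HNRNPH1 exon was identical at 124 positions (89.2%) in HNRNPH2 and at 116 positions (83.5%) in HNRNPF. In HNRNPH2 and HNRNPF the stretch lies inside a single large exon, of 2198 nt and 1915 nt, and every annotated protein-coding transcript of these 2 genes has 1 coding exon. The 136-nt exon of GRSF1 shown aligned with gaps to the HNRNPH1 exon at 133 positions, 84 of them identical (63.2%). Of the 7 GRSF1 exons aligned, it had the most identical positions. By share it was not the highest, as the 75-nt exon was identical at 68.9% of 74 positions. A 122-nt exon was identical at 61.4% of 114 and another 136-nt exon (chr4:71691013-71691148) at 55.9% of 127. The rest were identical at 48.9% to 55.1%. Shares over unequal numbers of aligned positions are not like for like. A length of 139 nt, like one of 136 nt, leaves a remainder of 1 when divided by 3, so that skipping shifts the reading frame.

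The HNRNPH1 exon held 4 runs of GGG or longer, the HNRNPH3 exon 5, the HNRNPH2 and HNRNPF stretches 4 each and the GRSF1 exon 3. Among 1027 internal exons of 139 nt in protein-coding GENCODE transcripts, 94 (9.15%) held 4 or more runs of GGG on the sense strand. On the opposite strand, where the motif reads CCC, 283 of them (27.6%) held 3 or more runs, against 243 (23.7%) on the sense strand. Runs at positions 21 and 132, counted from 1 at the 5′ end, were at the same place in all 4 hnRNP H/F sequences. A run over positions 60 to 63 was also in all 4, and in HNRNPH1 it began at 59. The run at position 47 was present in HNRNPH1, HNRNPH3 and HNRNPH2 and not in HNRNPF. Of the 19 exons of these genes described here, 6 held 4 or more GGG runs and 4 held none, and the number was not tested against the response. A G run is a description of the letters and not a binding site.

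**Figure D1:**
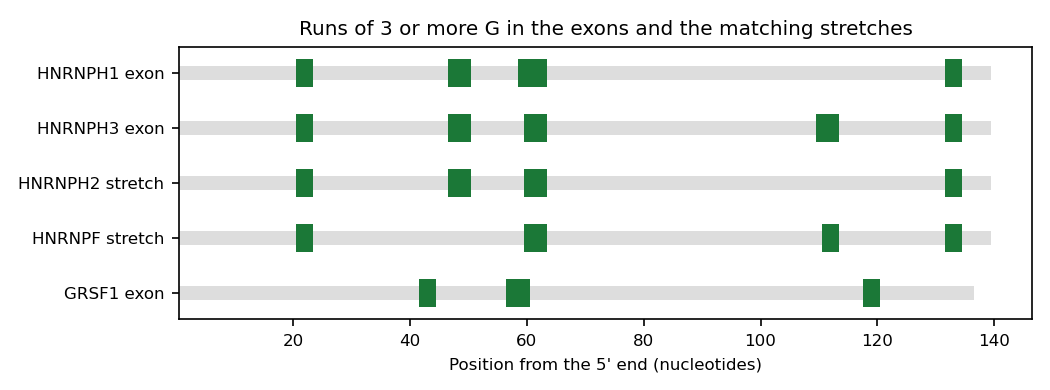
Runs of 3 or more G (green) along the 139-nt exons of HNRNPH1 and HNRNPH3, the matching stretches of HNRNPH2 and HNRNPF and the 136-nt exon of GRSF1 (grey bars); the horizontal axis is the position in nucleotides from the 5′ end. Runs at positions 21 and 132, and a run over positions 60 to 63, are shared by the 4 hnRNP H/F sequences.

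Junction reads summed over all events were 78412292 to 83483642 per MCF10A library and 90031966 to 91259363 per HMLE TWIST library, with a read counted in each event it supports. The median member event had 1551.5 to 2707 reads in a library. The labels of the lines were set against marker genes that have events: HMLE TWIST libraries had at most 7 reads for the epithelial gene CDH1, 15 for ESRP1 and 6 for ESRP2, while every MCF10A library had at least 1519, 1206 and 830 reads for these 3 genes. The mesenchymal gene VIM had at least 95897 reads in its deepest event in each HMLE TWIST library, and 5912 to 28296 in its 1 event in MCF10A, more than any of the 3 epithelial genes there. EPCAM, GRHL2, DSP and CDH11 had no event in either table, and CDH2 had none in MCF10A. In whole cultures, fewer cells of a type and less RNA per cell cannot be told apart. Likewise, a change in splicing and a change in the stability of one form of a message cannot be told apart from steady-state RNA.

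The inclusion level is the share of a gene's local transcripts that include the exon, from 0 to 1, after correction for the number of read positions in each form. A change is the emetine mean of the inclusion level less the DMSO mean. An event was tested where every library had at least 20 reads and the rarer form at least 10 reads over the libraries of the fit, and was called changed where the adjusted p-value of a quasi-binomial model was under 0.05 and the change at least 0.1. Of the member events, 16 were tested in MCF10A and 19 in HMLE TWIST, over 19 exons in all.

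Emetine lowered inclusion of the 139-nt exon in both HNRNPH1 and HNRNPH3, in both lines, and left the tested exons of HNRNPF and GRSF1 without a called change. In each line 4 member events were called, 1 with higher and 3 with lower inclusion: 4 of 16 in MCF10A, where 13.4% of the 25522 events tested were called (8.16% higher, 5.29% lower), and 4 of 19 in HMLE TWIST, where 14.6% of 30290 were called (6.46% higher, 8.15% lower). With limma, which called 7.88% and 9.94% of all events, the member calls again numbered 4 in each line. In both lines 3 of the 4 events belonged to HNRNPH1 and share reads, so that they describe the same switch, and the other was in HNRNPH3. The median change of the tested member events was -0.00248 in MCF10A against -0.000168 over all tested events, and -0.000262 in HMLE TWIST against -0.00315. The median size of the change, whatever its sign, was 0.00978 against 0.0239 in MCF10A and 0.0147 against 0.0255 in HMLE TWIST. Most member exons thus moved little, and the calls rested on 2 exons.

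**Figure D2:**
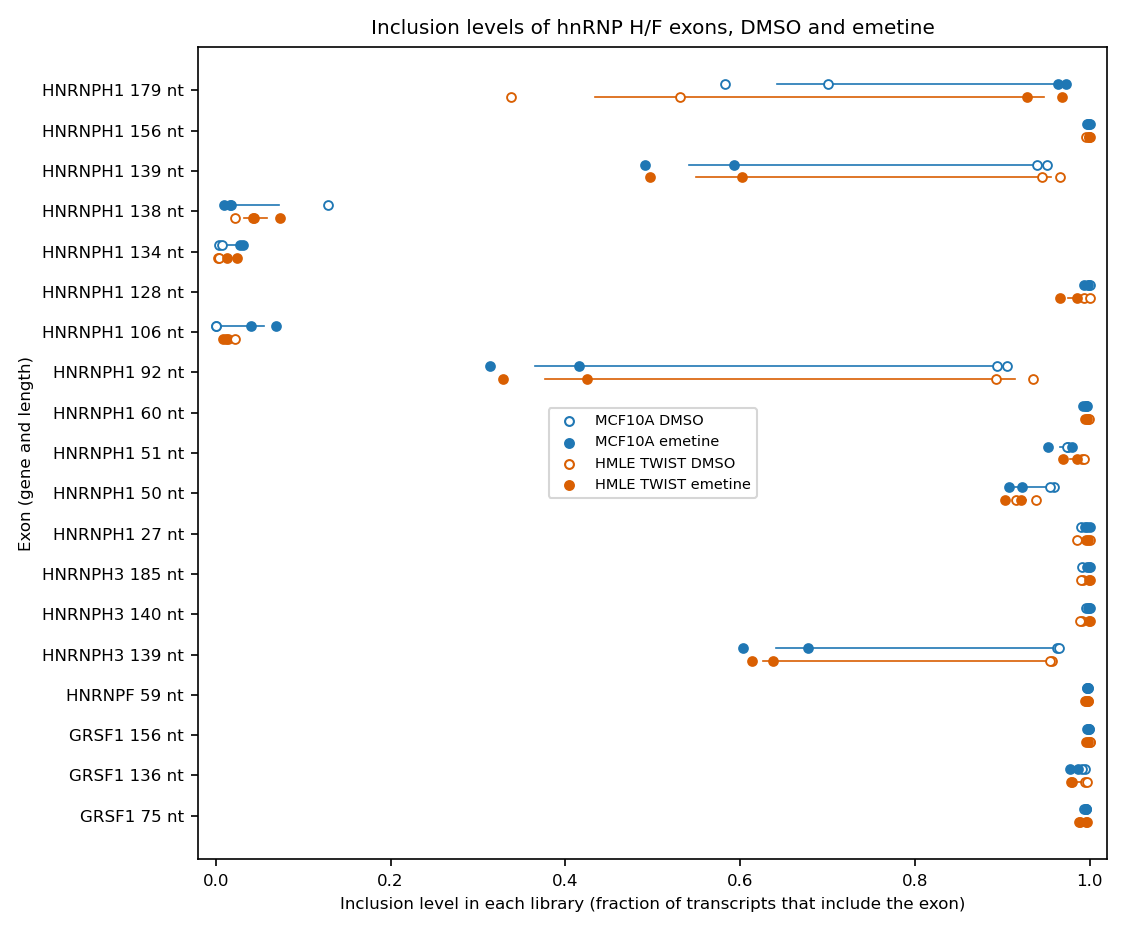
Inclusion level (horizontal axis, 0 to 1) of each tested exon of the 4 genes with an event, in each library; open points are DMSO and filled points emetine, blue is MCF10A and orange HMLE TWIST, each line joins the 2 group means, and points can lie on top of each other. The 139-nt exons of HNRNPH1 and HNRNPH3 sit at 0.940 or above in every DMSO library and at 0.678 or below in every emetine library.

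The HNRNPH1 139-nt exon had inclusion levels of 0.940 and 0.951 with DMSO in MCF10A and of 0.491 and 0.593 with emetine. In HMLE TWIST the levels were 0.946 and 0.966 with DMSO and 0.497 and 0.602 with emetine. All 4 control libraries were above all 4 emetine libraries, although the groups did not overlap in 67.4% of all events tested in MCF10A and 69.9% in HMLE TWIST. The mean fell from 0.946 ± 0.00746 to 0.542 ± 0.0727 in MCF10A (SD, n = 2), a change of -0.404 with a standard error of 0.0517 (quasi-binomial adjusted p = 6.59e-309; limma adjusted p = 0.0146). In HMLE TWIST it fell from 0.956 ± 0.0145 to 0.549 ± 0.0745 (SD, n = 2), a change of -0.406 with a standard error of 0.0537 (quasi-binomial adjusted p = 3.18e-216; limma adjusted p = 0.0123). Counting this one, 76 of the events tested in MCF10A (0.298%) and, in HMLE TWIST, 213 events (0.703%) had a change as low or lower. The quasi-binomial p-values rest on a dispersion shared by all events, so limma's, which use the spread of the log2 odds between libraries, stand beside them.

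The reads showed where this change lay. In MCF10A the reads that skip the HNRNPH1 exon numbered 136 and 109 with DMSO and 2332 and 1525 with emetine, while those that include it numbered 4290 and 4224 with DMSO and 4493 and 4452 with emetine. In HMLE TWIST the skipping reads numbered 109 and 50 with DMSO and 1148 and 772 with emetine, and the inclusion reads 3792 and 2849, then 2266 and 2336. The skipping form was thus scarce in every control library and abundant in every emetine library. In GENCODE 29 the junction that skips this exon belongs to 8 HNRNPH1 transcripts, 3 of them annotated as targets of nonsense-mediated decay, 3 as protein-coding, 1 as a processed transcript and 1 as a retained intron.

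The other 2 HNRNPH1 events called were not independent of it. A 92-nt version of the exon (chr5:179046270-179046361), which ends at the same 5′ splice site and begins at a later 3′ splice site, was at 0.894 and 0.906 with DMSO in MCF10A and 0.313 and 0.416 with emetine, a change of -0.535, and a change of -0.538 in HMLE TWIST (quasi-binomial adjusted p = 8.85e-283 and 5.91e-188; limma adjusted p = 0.0145 and 0.0123). Its skipping reads were the same in number as those of the 139-nt exon in all 8 libraries. Its inclusion reads, 2197 and 2012 with DMSO in MCF10A and 2042 and 2086 with emetine, were nearly those of another event, in which the 139-nt exon is joined to an earlier exon, with 2213, 2038, 2053 and 2095 reads in the same order. Those 2 events have in common only the junction that leaves the exon at its 3′ end, so use of the 92-nt version's own splice site could not be told from use of the 139-nt exon. The larger fall of the 92-nt event is therefore not a separate measurement.

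The third HNRNPH1 event was the 179-nt exon that follows the 139-nt exon in the message (chr5:179045146-179045324), counted here where it is joined directly to the exon before the 139-nt one. Its level was 0.701 and 0.583 with DMSO in MCF10A and 0.973 and 0.963 with emetine, and 0.531 and 0.338 with DMSO in HMLE TWIST and 0.968 and 0.928 with emetine. The level rose by 0.326 in MCF10A and by 0.513 in HMLE TWIST (quasi-binomial adjusted p = 2.72e-20 and 5.34e-29; limma adjusted p = 0.0150 and 0.0154). The inclusion reads, 136 and 109 with DMSO in MCF10A and 2337 and 1528 with emetine, were almost those that skip the 139-nt exon. The reads that skip the 179-nt exon as well were few throughout, 29, 39, 33 and 29 in MCF10A and 49, 49, 19 and 30 in HMLE TWIST. Where the 179-nt exon was counted against a nearer following exon instead, it had 1596 to 7183 inclusion reads and 0 to 3 skipping reads in each library, too few of the latter for a test. The rise thus reports the junction that skips the 139-nt exon.

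HNRNPH3, whose 139-nt exon matches that of HNRNPH1 at 126 of 139 positions, changed the same way. Its exon had levels of 0.963 and 0.965 with DMSO in MCF10A and of 0.603 and 0.678 with emetine. In HMLE TWIST the levels were 0.957 and 0.955 with DMSO and 0.614 and 0.638 with emetine. The 4 control libraries lay above the 4 emetine libraries, beside 67.4% of all tested events without overlap in MCF10A and 69.9% in HMLE TWIST. The mean fell from 0.964 ± 0.00208 to 0.641 ± 0.0532 in MCF10A (SD, n = 2), a change of -0.323 with a standard error of 0.0376 (quasi-binomial adjusted p = 3.54e-161; limma adjusted p = 0.0145). In HMLE TWIST it fell from 0.956 ± 0.00151 to 0.626 ± 0.0173 (SD, n = 2), a change of -0.330 with a standard error of 0.0123 (quasi-binomial adjusted p = 7.94e-166; limma adjusted p = 0.0115).

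The skipping reads of the HNRNPH3 exon numbered 58 and 49 with DMSO in MCF10A and 1462 and 1050 with emetine, and 93 and 70 with DMSO in HMLE TWIST and 992 and 616 with emetine. The inclusion reads numbered 2979 and 2739, then 4441 and 4425, in MCF10A, and 4174 and 2985, then 3150 and 2172, in HMLE TWIST. As in HNRNPH1, the skipping form was scarce in each control library and abundant in each emetine library. The junction that skips this exon belongs to 2 GENCODE transcripts of HNRNPH3, both annotated as processed transcripts without a coding sequence. In HMLE TWIST the same exon was also listed with its neighbour beyond the next exon, where skipping would remove 2 exons together, and there the level was 0.995 and 0.993 with DMSO and 0.999 and 1.0 with emetine, a change of 0.00505 (quasi-binomial adjusted p = 0.179; limma adjusted p = 0.0473).

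**Figure D3:**
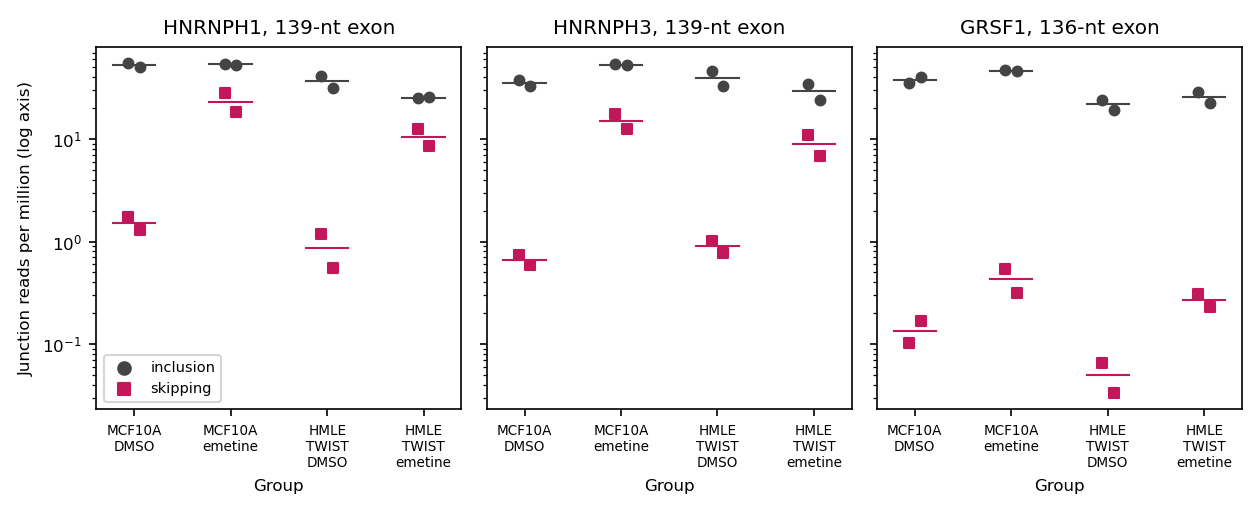
CPM, the junction reads scaled to the library's total (log axis), that include (grey circles) or skip (pink squares) the 139-nt exons of HNRNPH1 and HNRNPH3 and the 136-nt exon of GRSF1, by group, with horizontal bars at the mean of 2 libraries. HNRNPH1 skipping reads are at 1.73 and 1.31 CPM with DMSO in MCF10A and at 28.3 and 18.3 with emetine, and the inclusion reads move far less.

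The 2 forms of each event were also tested separately for their number of reads, with limma on log2 CPM. In MCF10A 18 of 32 member forms were called at an adjusted p under 0.05 (15 higher, 3 lower), where 51.4% of all 51044 forms were called (28.3% higher, 23.1% lower), and in HMLE TWIST 18 of 38 (9 higher, 9 lower), where 45.4% of 60580 were called (25.4% higher, 20% lower). The share of members called is near the background and is not read as a result. Scaling matters for these values: with TMM scaling the median log2 fold change of all forms was 0.12 in both lines, and with scaling by the library total alone it was 0.42 in MCF10A and 0.59 in HMLE TWIST. By the total alone the member calls were 20 higher and 1 lower in MCF10A and 10 higher and 5 lower in HMLE TWIST, and among all forms the higher calls were 18565 against 8292 lower in MCF10A, in place of 14443 against 11811, and 21820 against 6317 in HMLE TWIST, in place of 15396 against 12097.

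Under either scaling the forms that skip the 139-nt exon alone rose in both genes. The HNRNPH1 form rose by 3.61 on the log2 scale in MCF10A (standard error 0.223, limma adjusted p = 4.3e-05) and by 3.18 in HMLE TWIST (standard error 0.364, limma adjusted p = 0.00064) with TMM, and by 3.91 and 3.65 with the total alone. The HNRNPH3 form rose by 4.19 (standard error 0.205, limma adjusted p = 2.0e-05) and by 2.79 (standard error 0.279, limma adjusted p = 0.00040), and by 4.49 and 3.26 with the total alone. Other skipping forms of these genes were lower in HMLE TWIST. The one that the 140-nt and 185-nt exons of HNRNPH3 share fell by 3.15 with TMM and fell by 2.68 with the total alone (limma adjusted p = 0.0216 and 0.0406), on 0 to 5 reads in each library. That of the HNRNPH1 179-nt exon had values of -1.50 and -1.03 (limma adjusted p = 0.0168 and 0.064), a call under TMM only. The forms that include the 139-nt exon moved less and not alike. That of HNRNPH1 had a log2 fold change of -0.27 in MCF10A with TMM (limma adjusted p = 0.033) and of 0.04 with the total alone (limma adjusted p = 0.74), so its direction there depends on the scaling. In HMLE TWIST it fell under both, by 0.996 and by 0.53 on the log2 scale (limma adjusted p = 0.0031 and 0.048). With TMM in MCF10A, the HNRNPH1 156-nt and 128-nt inclusion forms rose by 0.62 and 0.59 (limma adjusted p = 0.0024 and 0.0023). Those of the 60-nt and 50-nt exons rose by 0.46 and 0.41 (limma adjusted p = 0.010 and 0.023). The 139-nt inclusion form did not share this rise. The 92-nt and 138-nt forms had values of -0.36 and -0.11 (limma adjusted p = 0.021 and 0.92). In HMLE TWIST the 128-nt, 60-nt and 50-nt values were -0.32, -0.45 and -0.33, none called. The HNRNPH3 inclusion form rose in MCF10A, by 0.30 with TMM and 0.60 with the total alone (limma adjusted p = 0.035 and 0.0015), and had values of -0.91 and -0.45 in HMLE TWIST (limma adjusted p = 0.012 and 0.18). Whether these read changes differ between the lines was not tested.

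The response of the inclusion levels was tested for a difference between the lines over all 8 libraries. None of 10 member events was called, where 2.89% of 19025 events were, and none of 13 matched by their junctions alone, where 2.87% were. At an unadjusted p under 0.05 there were 2928 of the 19025 events, and limma called 0 of 19025 with 2826 at an unadjusted p under 0.05. The HMLE TWIST change of the HNRNPH1 139-nt exon minus that in MCF10A was -0.00288 with a standard error of 0.0745 (quasi-binomial adjusted p = 0.725; limma adjusted p = 0.866). For the HNRNPH3 exon, whose flanking exons have other outer ends in the 2 tables and which was therefore matched by its junctions, the difference was -0.00704 with a standard error of 0.0396 (quasi-binomial adjusted p = 0.827; limma adjusted p = 0.897). The 179-nt event differed by 0.187 with a standard error of 0.115 (quasi-binomial adjusted p = 0.773; limma adjusted p = 0.791). A p that misses the threshold does not show that the lines respond alike.

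**Figure D4:**
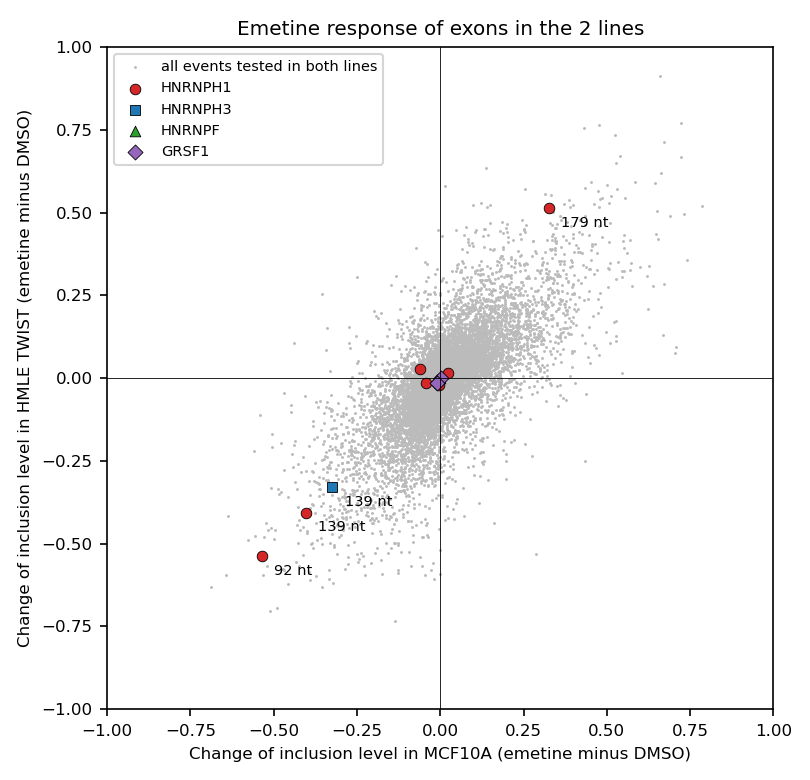
Change of inclusion level in MCF10A (horizontal axis) and in HMLE TWIST (vertical axis). Grey points are the 19025 events tested in both lines, matched by the exon and its flanking exons. Coloured points are 13 member events tested in both and matched by their junctions alone, while 10 member events were matched by flanking exons. Colours give the gene, and the exon's length is printed where the change in MCF10A is over 0.1. The HNRNPH1 and HNRNPH3 139-nt exons lie at -0.404 and -0.406 and at -0.323 and -0.330.

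Without emetine the lines were close for these exons. The control level of the HNRNPH1 139-nt exon was 0.0102 higher in HMLE TWIST (quasi-binomial adjusted p = 0.509) and that of the HNRNPH3 exon, matched by its junctions, differed by -0.00772 (quasi-binomial adjusted p = 0.580). In all, 1 of 10 member events was called between the untreated lines, where 5.55% of 19025 were, and 1 of 13 matched by junctions, where 5.51% were. It was the 179-nt event of HNRNPH1, at 0.434 ± 0.137 in HMLE TWIST and 0.642 ± 0.0835 in MCF10A (SD, n = 2), a difference of -0.207 (quasi-binomial adjusted p = 0.0298) on 99 to 165 reads per control library. The call was lost with limma (adjusted p = 0.355), which called 0 of the 19025 events and had 3570 at an unadjusted p under 0.05. It was also lost without the first listed MCF10A control (-0.148, quasi-binomial adjusted p = 0.408) and without the second listed HMLE TWIST control (-0.111, quasi-binomial adjusted p = 0.530).

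GRSF1 differed little with treatment, but the 136-nt exon shown had more skipping reads in every emetine library than in any control library of the line. Its levels were 0.994 and 0.992 with DMSO in MCF10A and 0.977 and 0.987 with emetine, on 8 and 14, then 45 and 26 skipping reads. In HMLE TWIST they were 0.995 and 0.997, then 0.979 and 0.980, on 6 and 3, then 28 and 21 skipping reads. The groups did not overlap in either line, as was so for 67.4% of all events tested in MCF10A and 69.9% in HMLE TWIST. The change was -0.0109 in MCF10A (quasi-binomial adjusted p = 0.0179; limma adjusted p = 0.128) and -0.0162 in HMLE TWIST (quasi-binomial adjusted p = 0.0032; limma adjusted p = 0.0308), under the 0.1 that a call required. Leaving out 1 library took the quasi-binomial adjusted p to as much as 0.296 in MCF10A (without the first listed emetine library) and 0.0684 in HMLE TWIST (without the second listed control). By the adjusted p alone, 7 of 16 and 9 of 19 member events passed, where 34.4% and 37.8% of all events did. The junction that skips it is annotated in 1 GENCODE transcript, a target of nonsense-mediated decay. The 75-nt exon of GRSF1, coding in part, was at 0.988 to 0.997 in all 8 libraries. The 156-nt exon was at 0.997 to 0.999 in MCF10A and had too few skipping reads for a test in HMLE TWIST. The other 136-nt exon was not tested, with 0 to 2 skipping reads in each of the 8 libraries.

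HNRNPF has its coding sequence in 1 exon, and its tested exon is a 59-nt exon of the 5′ untranslated region (ENSG00000169813.16; chr10:43890078-43890136 in the deposited coordinates). It was included at 0.995 to 0.999 in all 8 libraries, with 2 to 10 skipping reads in each. The change was -0.000336 in MCF10A and 0.000718 in HMLE TWIST (quasi-binomial adjusted p = 0.874 and 0.7505). The reads that include this exon fell under emetine in MCF10A, by 0.59 on the log2 scale with TMM and by 0.28 with the total alone (limma adjusted p = 0.0020 and 0.029). In HMLE TWIST the values were -0.74 with TMM and -0.28 with the total alone (limma adjusted p = 0.0058 and 0.14).

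HNRNPH1 had further exons with small shifts, among them a 134-nt exon (chr5:179048844-179048977) that GENCODE 29 places only in 2 transcripts, both targets of nonsense-mediated decay. It is shown because its inclusion is annotated only in decay targets. This differs from the skipping of the 139-nt exon, where 3 of the 8 transcripts are decay targets. The 134-nt exon holds 2 runs of GGG or longer, in capitals.
HNRNPH1 134-nt exon: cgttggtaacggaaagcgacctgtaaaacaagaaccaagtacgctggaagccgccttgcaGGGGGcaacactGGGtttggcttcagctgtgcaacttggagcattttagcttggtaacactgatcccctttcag

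Inclusion of the 134-nt exon was rare, at 0.00300 and 0.00747 with DMSO in MCF10A and 0.0311 and 0.0279 with emetine, on 14 and 35, then 301 and 236 inclusion reads. In HMLE TWIST it was at 0.00248 and 0.00398 with DMSO and 0.0244 and 0.0133 with emetine, on 10 and 14, then 108 and 53 inclusion reads. Every emetine library was above every control library, although the groups did not overlap in 67.4% of all events tested in MCF10A and 69.9% in HMLE TWIST. The change was 0.0243 in MCF10A (quasi-binomial adjusted p = 4.05e-22; limma adjusted p = 0.0426) and 0.0156 in HMLE TWIST (quasi-binomial adjusted p = 1.13e-10; limma adjusted p = 0.0346), again under the 0.1 required for a call. The reads that include it rose by 3.22 and 2.15 on the log2 scale (limma adjusted p = 0.00077 and 0.0078).

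The 50-nt exon of HNRNPH1 (chr5:179042547-179042596), coding in part, was at 0.960 and 0.955 with DMSO in MCF10A and at 0.907 and 0.923 with emetine, a change of -0.0420 (quasi-binomial adjusted p = 3.79e-08; limma adjusted p = 0.133). In HMLE TWIST its groups overlapped, at 0.916 and 0.939, then 0.921 and 0.903, a change of -0.0153 (quasi-binomial adjusted p = 0.289). The difference of the 2 changes was 0.0268, matched by junctions (quasi-binomial adjusted p = 0.0612; limma adjusted p = 0.573). Between the untreated lines its level differed by -0.0298, lower in HMLE TWIST (quasi-binomial adjusted p = 0.0025; limma adjusted p = 0.391).

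The 128-nt exon of HNRNPH1, coding in part (chr5:179050038-179050165), was at 0.993 and 1.0 with DMSO in HMLE TWIST and 0.967 and 0.985 with emetine when counted against a distant exon, a change of -0.0206 (quasi-binomial adjusted p = 0.00029; limma adjusted p = 0.118), and at 0.994 to 1.0 in the MCF10A libraries. Against 2 nearer exons the change was 0.00088 and -0.00026 in HMLE TWIST (quasi-binomial adjusted p = 0.755 and 0.962). The alternative 5′ exons of 138 nt and 106 nt, both noncoding, share their skipping reads and were thinly covered. The 138-nt exon had a change of -0.0598 in MCF10A, on 1, 5, 4 and 2 inclusion reads, and of 0.0260 in HMLE TWIST (quasi-binomial adjusted p = 0.166 and 0.213), and the difference of 0.0858 between the lines had an adjusted p of 0.219 by the quasi-binomial model. The 60-nt and 51-nt versions of one exon, which differ by 9 nt at an end, and the 156-nt and 27-nt versions of another were at 0.952 or above in every library where they were tested, with changes between -0.0147 and 0.00426.

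In HNRNPH3 the exon after the 139-nt one was listed in versions of 140 nt and 185 nt that share their skipping reads. In HMLE TWIST, where they were tested, skipping reads numbered 5 and 5 with DMSO and 1 and 0 with emetine, and the changes were 0.00965 and 0.00804 (quasi-binomial adjusted p = 0.0156 and 0.0391; limma adjusted p = 0.0154 and 0.0182). The remaining events were not tested, 23 in MCF10A and 33 in HMLE TWIST. In 20 and 28 of them every library had at least 20 reads but the rarer form had only 1 to 6 and 1 to 9 reads in all, with group means from 0.942 to 1.0, and 3 and 5 had a library under 20 reads. Most member events thus had few reads that skip the exon between the neighbours listed. This does not show that their exons were included throughout. The HNRNPH1 139-nt exon was itself in such an event, with 2213 inclusion reads and 1 skipping read in the first listed MCF10A control.

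Genes reported as spliced by hnRNP H or F were looked at from a list of 11, which held regulators of cell death, signalling and adhesion. In MCF10A 7 of them had a tested event, and 15 of 63 events were called (13 higher and 2 lower, in 6 genes); the median change was 0.0224 against -0.000168 over all events. In HMLE TWIST 7 had a tested event, and 17 of 78 were called (11 higher and 6 lower, in 5 genes), with a median of 0.00643 against -0.00315. These were 23.8% and 21.8% of the list's events, beside the 13.4% and 14.6% of all events. Events of 1 gene can share reads.

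Among the list's events tested in both lines was a 166-nt exon of TCF3, a transcription factor gene. It changed by 0.332 in MCF10A and 0.189 in HMLE TWIST (quasi-binomial adjusted p = 0.00748 and 0.0131, limma adjusted p = 0.0405 and 0.134). A 120-nt exon of CD44, the hyaluronan receptor with a cluster of variable exons, changed by 0.155 and 0.286 (quasi-binomial adjusted p = 9.09e-18 and 1.62e-06; limma adjusted p = 0.105 and 0.0387). A 76-nt exon of TPM1, a tropomyosin gene, rose by 0.132 and 0.449 (limma adjusted p = 0.0198 and 0.0206). The 82-nt exon of HRAS, a small GTPase gene, had changes of 0.0641 and 0.0712, and this event was not called in either line, although HRAS was among the genes called in both lines through another event. Not all of the list went up: a 60-nt exon of MADD, named after its values were seen, had a change of -0.0606 in MCF10A, which was not called, and fell by 0.190 in HMLE TWIST (limma adjusted p = 0.0383 and 0.0144). BCL2L1, FGFR2 and INSR had no tested event in either line. Whether the exons named here are those reported as controlled by hnRNP H or F was not examined.

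A list of 16 other genes whose proteins bind G-quadruplex RNA was looked at the same way, with 4 of 57 events in MCF10A (2 higher, 2 lower) and 6 of 68 in HMLE TWIST (2 higher, 4 lower) called, or 7.02% and 8.82%. In both lines the genes called were DHX9, FXR1, HNRNPA2B1 and TAF15. A 137-nt exon of DHX9, an RNA helicase gene, rose from 0.0836 ± 0.00864 to 0.735 ± 0.0530 in MCF10A, and in HMLE TWIST from 0.0593 ± 0.00591 to 0.564 ± 0.0654 (SD, n = 2; limma adjusted p = 0.0145 and 0.0113). A 136-nt exon of HNRNPA2B1, an hnRNP gene, rose by 0.327 and 0.324 (limma adjusted p = 0.0146 and 0.0141), a 76-nt exon of TAF15 fell by 0.136 and 0.220 (limma adjusted p = 0.0145 and 0.0113), and a 92-nt exon of FXR1 changed by -0.134 and -0.113 (quasi-binomial adjusted p = 1.08e-11 and 2.18e-06; limma adjusted p = 0.209 and 0.261). The median changes of this list were -0.00182 and -0.00288.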

How the data were processed

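RNA of 8 libraries (2 per group) was sequenced by the authors and aligned with STAR 2.5.3a to GRCh37, per the submitters' processing notes. The deposited skipped-exon tables are in the format of rMATS, 1 table per line, per the file headers; the rMATS version and the annotation release are not given in the sources used here. Per the file headers, each cell holds the deposited junction counts, or inclusion levels (a fraction), of the 2 replicates of a group as a pair, beside the authors' effective lengths, p-value, false discovery rate and difference score. The first group of a table was taken as DMSO from the order in the table's name. The values of a pair carry no replicate number.

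Inclusion levels were recomputed from the deposited counts and lengths. Each event was fitted with a quasi-binomial model in R 4.3.3, with dispersions floored at 1 and moderated across events with limma 3.58.1. The prior weight came out infinite, so all events of a fit shared one dispersion (2.13 in MCF10A, 2.11 in HMLE TWIST, 2.11 for the difference between lines and 2.06 between the untreated lines). Moderated F tests were two-sided and adjusted by Benjamini-Hochberg over all events of the fit. The alternative was limma on the log2 odds with 0.5 added. Reads of each form were tested with limma on log2 CPM with TMM factors. A count model (edgeR) had been intended for this and was not run. The deposited pairs split into whole counts, so their format did not prevent it. The quasi-binomial p-values therefore do not use an event's own spread between replicates, and very small ones are not a measure of it. With 2 replicates per group all the adjusted p-values speak for these cultures only.

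On simulated data with log odds shifted by 1.5, 54.8% of the 73 shifted MCF10A events that moved by at least 0.1 were called (63.3% of 49 in HMLE TWIST and 39.5% of 81 for the difference between lines), with 3, 0 and 2 false calls among 50, 43 and 41. The simulation gave all events the same dispersion, as the model assumes. Its false calls therefore say nothing about events whose replicates spread more.

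Every exon of a member with a tested event is named; its event with the most reads stands for it. Examples from the 2 gene lists are the event with the largest change in a gene among those tested in both lines. Genes were ranked on whichever line's change is smaller. The members and the lists were chosen with earlier results of these data known. Alternatives covered the length correction, test, dispersion, read minimum, change threshold and a block by position in the pair. Each library was also left out, and the authors' deposited false discovery rate was used. Deposited coordinates are printed with starts counted from 1. No coordinates were converted between builds: GENCODE 29 (GRCh38) transcripts were matched by exon and intron lengths.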

Additional observations from a re-analysis of the deposited data

Results flagged for a closer look

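The 106-nt alternative 5′ exon of HNRNPH1 (chr5:179051098-179051203) was not tested in MCF10A, because a control library had 17 reads. It had 0 and 0 inclusion reads beside 29 and 17 skipping reads in the controls, and 18 and 9 inclusion reads beside 121 and 107 skipping reads under emetine, 27 inclusion reads in all. In the authors' deposited table the false discovery rate of this event was 0.00478 in MCF10A and 1.0 in HMLE TWIST. It drew attention as a signal in events outside the tested set that was above the control samples. In HMLE TWIST the exon had 3, 3, 4 and 5 inclusion reads and a change of -0.00784 (quasi-binomial adjusted p = 0.618; limma adjusted p = 0.235). The control depth allows up to 3 inclusion reads per library at a count of 0, and the part of depth in the MCF10A difference was not tested.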

How the results depend on the processing

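The member events called numbered 4 in each line under every alternative run, the authors' deposited false discovery rate included, and 0 for the difference between lines. The 1 call between the untreated lines became 0 with limma (0.5 or 1 added), with each event's own dispersion and with the floor applied after moderation, and ranged from 0 to 1 over the left-out libraries. Libraries listed at the same position of their pairs did not deviate together (r = 0.0165 in MCF10A and 0.0110 in HMLE TWIST). The pairs carry no replicate number, so this cannot tell whether replicates of the same number were paired. With the position in the pair as a block the member calls were 4, 4, 0 and 1. With the block, 29190 of 51044 forms in MCF10A and 35442 of 60580 in HMLE TWIST were called. Of the member forms, 20 of 32 and 25 of 38 were called. Over the left-out libraries the called forms ranged from 11 to 15 in MCF10A and 12 to 15 in HMLE TWIST. The member forms called numbered 31 of 78 in MCF10A with no read filter beyond 1 read, where 53393 of 158868 forms were called. With a log2 fold change of at least 1 they numbered 7 of 32 and 11 of 38. Among all forms, 17789 of 51044 in MCF10A and 21580 of 60580 in HMLE TWIST then passed. DESeq2 was not run. Over all events, 3432 calls in MCF10A became 2012 with limma, and thresholds of 0.05 and 0.2 gave 5258 and 1565 there and 6813 and 2042 in HMLE TWIST (4425 at 0.1). The difference between lines had 549 calls, 0 with limma, 362 with each event's own dispersion, 275 at 0.2, 332 without the second MCF10A control and 351 without the second HMLE TWIST control. The untreated lines had 1055 calls, 0 and 36 with limma (0.5 and 1 added), 112 with the floor after moderation, and 1598 and 494 at 0.05 and 0.2. With no read filter beyond 1 read, 53393 and 55091 forms were called. Flooring after moderation, matching by junctions and median-ratio scaling were chosen after seeing the data. The cause of these shifts was not tested.

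Of 710 alternative values of single exons, 672 kept direction and side of the threshold, 6 lost the call and 32 changed sign. The 6 were all the untreated difference of the 179-nt event. Without length correction the difference between lines was 0.00497 for the HNRNPH1 92-nt exon and 0.000741 for the 139-nt exon. Leaving out a library, the HNRNPF exon ranged from -0.0010 to 0.000328 in MCF10A, from -0.000808 to 0.00224 in HMLE TWIST, from -0.000472 to 0.00258 for the difference and from -0.00281 to 0.000245 untreated. The GRSF1 75-nt exon ranged from -0.000116 to 0.00205, -0.00315 to 0.00544, -0.00412 to 0.00447 and -0.0075 to 0.0011 in the same order. In HNRNPH1, the MCF10A change ranged from -0.00373 to 0.000678 for the 60-nt exon and from -0.0227 to 0.00543 for the 51-nt exon. The difference between lines ranged from -0.00345 to 0.000958 (60-nt), -0.0201 to 0.00799 (51-nt), -0.0538 to 0.0490 (92-nt) and -0.0556 to 0.0498 (139-nt). The untreated difference ranged from -0.00637 to 0.0350 (92-nt), -1.4e-05 to 0.0204 (139-nt) and -0.00646 to 0.000429 (128-nt). Reads of the rarer form limit the events with few skipping reads, and 2 libraries per group limit every test.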
